A study of Mus musculus with 12 samples.

Results

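The retinoid X receptor (RXR) gave 453 peaks in long terminal repeat (LTR) retrotransposons, of 10124 RXR peaks in 8 deposited lists. A peak was a member when the authors' detailed annotation named a repeat of class LTR at it, whatever its height, ligand or day. The members carried 153 element names, lay on 21 chromosomes, and were 307 intergenic and 146 intronic. The GW3965 list alone held 154 of them (34.0%), and without that list 299 members remained. Members were 4.47% of all RXR peaks, or 3.26% without the GW3965 list.

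All libraries came from E14, an established line of wild-type mouse embryonic stem (ES) cells, profiled by chromatin immunoprecipitation and sequencing (ChIP-seq). RXR and acetylated histone H3 (H3K27ac) were each mapped in ES cells kept in a vehicle control or given a ligand at 1 µM for 24 h. The ligands were GW3965, an agonist of the liver X receptor (LXR), LG268, an agonist of RXR itself, and RA, all-trans retinoic acid, which activates the retinoic acid receptor (RAR). Each of these 8 groups had 1 library, so no treatment was tested against another. Further RXR libraries, 2 a day, came from day 8 and day 16 of neural differentiation of the same cells as embryoid bodies in medium with RA at 5 µM. Nothing in the labels says that these replicates came from different cultures, and p-values then measure only the spread between these libraries, which may be technical. The lists hold only peaks past the authors' threshold and no read totals, so depth is unknown, and a peak missing from a list is not shown to be an unbound site.

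RXR binds DNA mostly as the partner of another nuclear receptor, at paired copies of a short hexamer related to AGGTCA. LTR retrotransposons are remnants of retrovirus-like elements, and their LTRs hold promoter and enhancer sequence that transcription factors can bind. In the mouse the ERVK, ERV1 and ERVL families derive from endogenous retroviruses, and ERVL-MaLR elements are non-autonomous relatives of ERVL. Names ending in "-int" denote the internal part of an element, and the other names denote its LTR. H3K27ac marks active promoters and enhancers. ES cells silence many of these elements through DNA methylation and KRAB zinc finger proteins, while some ERVK LTRs act as enhancers there.

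Sequence could be read for a single member, since the promoter windows of RefSeq (GRCm38.p6, 250 bases before to 50 after a gene start) overlapped only 1 merged LTR region. It is shown because it gives the bases beneath an RXR peak in an LTR element. The LG268 peak at chr12:16850741-16850965 lay in an ERV3-16A3_LTR element with a score of 5.7 (rank 1336 of 2089). The authors' annotation names E2f6, a repressive member of the E2F family, as its nearest gene, with a start 39888 bp away. The last 80 bases of the peak fall in the window of Gm36495 at chr12:16850886-16850965. They are printed from 5′ to 3′ on the minus strand, with AGGTCA and its reverse complement TGACCT in capitals. The start of Gm36495 is thus nearer than that of E2f6. Nearest genes and distances given here are those of the authors' annotation, which can miss a nearer start.

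Gm36495 window in ERV3-16A3_LTR: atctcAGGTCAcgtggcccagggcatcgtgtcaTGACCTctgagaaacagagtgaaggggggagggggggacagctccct

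The stretch held 2 copies of the hexamer, counted on both strands. They were in opposite orientation with many bases between them, so they were not adjacent copies. The counts below take no account of spacing or orientation. Of 32851 RefSeq promoter windows cut to the same length of 80 bases, 1352 (4.12%) held at least 1 copy and 45 (0.137%) at least 2. This match describes the letters and is not a measured binding site.

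Before the values of single elements, the lists were set side by side. The GW3965 list stood apart from the other ES lists: 26.2% of its peaks overlapped a control peak by at least 1 bp, against 37.6% with LG268 and 39.6% with RA. It had peaks near 9 of 24 pluripotency genes, among them Pou5f1, Esrrb, Klf2, Prdm14 and Zfp42, where the other ES lists had peaks near 1 or 2 of them. A gene was counted here when the files name it as nearest to a peak that lies at most 100 kb from its transcription start site (TSS). The part of these differences in the results on GW3965 was not tested. As a check of the labelled cell type, H3K27ac peaks lay within 1 kb of the TSS of 2 of 6 ES markers in the control and LG268 lists, 4 in the GW3965 list and 0 in the RA list. Nanog and Esrrb had none in any of these lists, and within 100 kb the counts were 5, 6, 3 and 3 of 6 for control, GW3965, LG268 and RA. Of 9 markers of other cell types, Pax6 and Tubb3 had such a peak in the control, Pax6 with GW3965, and Tubb3 and Sox17 with RA.

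The share of RXR peaks in LTR elements was several times higher in the GW3965 list than in any other list. It was 27 of 1089 peaks in the control (2.48%, 95% Clopper-Pearson interval 1.64 to 3.59), 54 of 2089 with LG268 (2.58%, 1.95 to 3.36) and 54 of 1970 with RA (2.74%, 2.07 to 3.56). With GW3965 it was 154 of 940 (16.4%, 14.1 to 18.9). The 3 other ES lists had overlapping intervals, and the GW3965 interval lay above all of them. These intervals cover counting error only and do not cover the spread between libraries, of which each treatment had 1.

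The higher LTR share with GW3965 was also seen among intronic and intergenic peaks alone. The files give repeat names only to intronic and intergenic peaks: all 2393 repeat-named RXR peaks were of these kinds, and 0 of 1938 promoter, exon, UTR, termination-site or non-coding peaks had one. Among intronic and intergenic peaks alone the LTR share was 3.28% in the control, 18.3% with GW3965, 3.48% with LG268 and 3.68% with RA. The share of peaks in SINE elements, short non-LTR transposons, was 3.94% (2.79 to 5.38) with GW3965 against 4.68% (3.51 to 6.11) in the control. LINE elements, long non-LTR transposons, took 2.02% (1.22 to 3.14) with GW3965, against 1.01% (0.505 to 1.80) in the control, 0.622% (0.332 to 1.06) with LG268 and 0.863% (0.503 to 1.38) with RA. The LINE interval with GW3965 thus lay above that of LG268 and overlapped those of the control and RA. Among H3K27ac peaks the LTR share was 2.21% (2.00 to 2.44) with GW3965, 2.52% (2.31 to 2.74) in the control, 1.11% (0.938 to 1.31) with LG268 and 1.26% (1.08 to 1.45) with RA. The GW3965 value was therefore above those of the other ligands and not above the control.

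**Figure D1:**
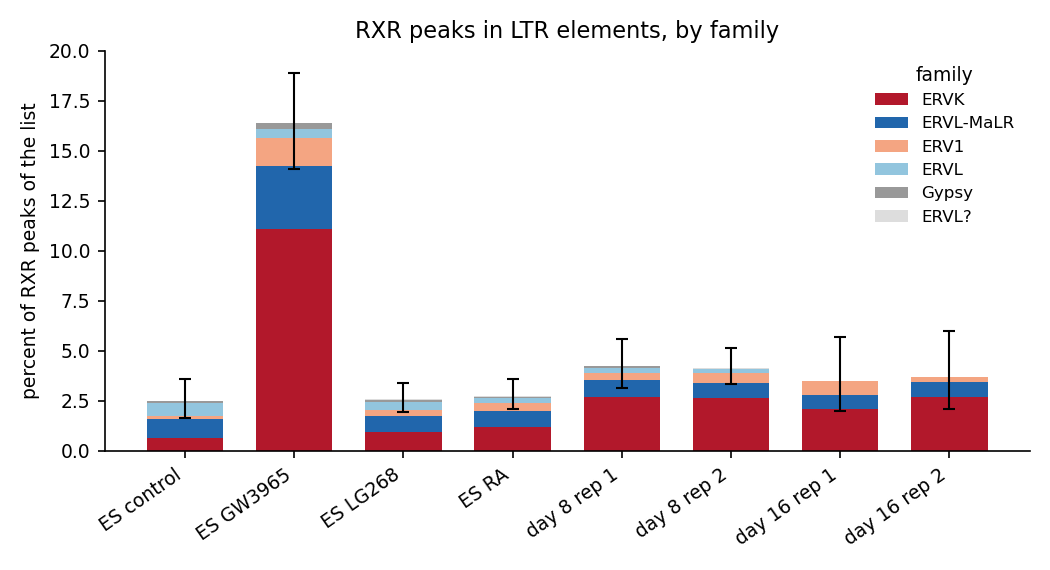
The bars give the percent of each RXR list's peaks that lie in LTR elements, stacked by family, with the exact 95% interval of the total as the error bar. The GW3965 bar reaches 16.4%, of which most is ERVK, and the other bars stand between 2.48% and 4.25%.

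ERVK was the leading family, with 258 members, followed by ERVL-MaLR with 104, ERV1 with 47, ERVL with 32 and Gypsy with 9, while 3 carried the uncertain name "ERVL?". Without the GW3965 list the counts were 154, 74, 34, 28, 6 and 3. In the control, ERVK held 7 of 27 LTR peaks (25.9%, 11.1 to 46.3) and ERVL-MaLR 10 (37.0%). With GW3965, ERVK held 104 of 154 (67.5%, 59.5 to 74.8) and ERVL-MaLR 30 (19.5%). The ERVK share lay between these values with LG268, at 19 of 54 (35.2%, 22.7 to 49.4), and with RA, at 23 of 54 (42.6%, 29.2 to 56.8). The GW3965 and control intervals for ERVK did not overlap. These are shares of LTR peaks. Of all RXR peaks, ERVL-MaLR took 30 of 940 with GW3965, 10 of 1089 in the control, 17 of 2089 with LG268 and 16 of 1970 with RA. Its share of a whole list was thus also highest with GW3965 among the ES lists. ERVL went the other way against the control, with 4 of 940 with GW3965 and 7 of 1089 in the control.

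The 104 ERVK peaks of the GW3965 list were spread over 36 element names, and the 5 names with at least 5 peaks held 56 of them. RLTR13D6, an ERVK LTR, had 23 peaks there and 0 in each of the 7 other RXR lists. RLTR9D had 11 with GW3965, 1 with LG268 and 0 in the remaining lists. RLTR9E had 10 with GW3965 and 1 each in the control, LG268 and RA lists. All elements whose names begin with RLTR9 had 33 peaks with GW3965, against 1 in the control, 2 with LG268, 1 with RA and 0 on either day. MLTR25A had 7 peaks with GW3965 and 1 each with LG268 and RA, and RMER16B2 had 5 with GW3965 and 1 with RA.

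**Figure D2:**
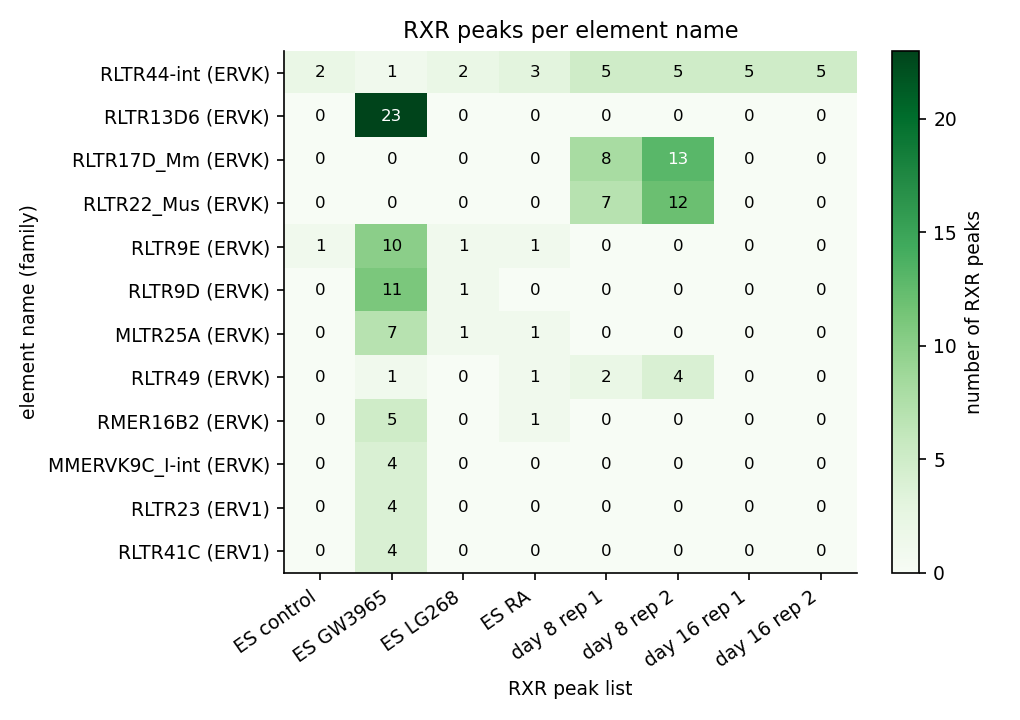
Each cell gives the number of RXR peaks in 1 element name (rows, with family) and 1 list (columns), for the 12 names plotted. RLTR13D6, RLTR9D and RLTR9E fill the GW3965 column, RLTR17D_Mm and RLTR22_Mus fill only the day 8 columns, and RLTR44-int has peaks in every column.

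The RLTR13D6 peaks lay on 11 chromosomes, 16 of them intergenic and 7 intronic, with a median distance of 118 kb to the nearest TSS. Their scores ran from 2.35 to 11.2 with a median of 4.93, and their ranks from 148 to 929 of 940. The highest lay at chr5:104442856-104443146, 6809 bp downstream of the TSS of Spp1, which encodes the secreted matrix protein osteopontin. The next 2 both had a score of 9.4. One was intergenic, 212509 bp upstream of the TSS of Fbxl4, an F-box protein gene, and the other lay in intron 8 of 17 of Cwf19l2. Of the 23 peaks, 3 were in the top quartile of scores and 9 above the median of the list, so the set ran from high to low ranks with a low median.

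The best peaks of RLTR9 and other ERVK names reached higher ranks, though these names held low-ranked peaks too. Median score percentiles were 50.9 for RLTR9D, 30.2 for RLTR9E, 41.0 for MLTR25A and 47.9 for RMER16B2, against 27.6 for RLTR13D6. RLTR9E ran down to rank 924 and MLTR25A to rank 920 of 940. The RLTR9A3B peak nearest Mettl20 (chr6:149131132-149131448) had a score of 19.56 and rank 41. The RLTR9D peak at chr4:155670284-155670517, 1146 bp upstream of Mib2, a ubiquitin ligase gene of the Notch pathway, had a score of 17.02 and rank 60. The leading MLTR25A peak, nearest Stoml1 (chr9:58279375-58279680), had a score of 18.98 and rank 50, and it overlapped peaks of 2 other lists. The RMER16B2 peak nearest Zbtb44, a zinc finger gene (chr9:31018746-31019114), had a score of 16.85 and rank 61.

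Outside these names, the highest LTR peak of the GW3965 list was an RLTR33 element in Aida at rank 24, described below, which every list held. The next was an ORR1C1 element at chr16:84769170-84769458, 4809 bp upstream of Jam2, a junctional adhesion molecule gene, with a score of 20.87 and rank 34 and no peak in any other list. ORR1 elements, an ERVL-MaLR group, had 17 peaks with GW3965, 7 each in the control and LG268 lists and 6 with RA. ORR1 peaks were thus found in every ES list, where RLTR13D6 peaks were in the GW3965 list only and RLTR9 peaks nearly so. The GW3965 list held 940 peaks, against 1089 in the control, 2089 with LG268 and 1970 with RA. The ORR1 share of RXR peaks was therefore also highest with GW3965 among the ES lists. IAP elements, a young and strongly silenced ERVK group, had 0 peaks among the 453, and ETn and MusD elements had 1, with GW3965. In the H3K27ac lists, IAP elements had 13 peaks in the control and 10 with GW3965, and ETn and MusD elements 57 and 37.

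A smaller share of the LTR peaks than of all peaks of the GW3965 list had a counterpart in other lists. A control RXR peak overlapped 7 of 154 (4.55%, 1.85 to 9.14), against 26.2% of all GW3965 peaks and 23.5% of the intronic and intergenic ones. A peak of any other RXR list overlapped 20 of 154 (13.0%, 8.12 to 19.3), against 37.4% and 33.9%. Seen from the other side, LTR elements held 7 of the 246 GW3965 peaks that had a control peak (2.85%, 1.15 to 5.77) and 147 of the 694 that had none (21.2%, 18.2 to 24.4). The former share was close to the LTR share of the control list itself. With both lists limited to the higher-scoring 50% of their peaks, the overlap with the control was 6 of 64 LTR peaks (9.38%, 3.52 to 19.3), against 30.6% of intronic and intergenic ones. Among the 20 shared LTR peaks were RLTR9E nearest Tle4, a corepressor gene, which overlapped 1 other list, and MLTR14 nearest Mir290, a microRNA gene active in ES cells, which also overlapped 1.

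With LG268 and RA the intervals for LTR peaks included the share of all peaks. A control peak overlapped 18 of 54 LTR peaks with LG268 (33.3%, 21.1 to 47.5), against 37.6% of all its peaks, and 20 of 54 with RA (37.0%, 24.3 to 51.3), against 39.6%. Of the LG268 LTR peaks, 28 of 54 (51.9%) overlapped an RA peak, against 54.5% of all LG268 peaks. Of the RA LTR peaks, 27 of 54 overlapped an LG268 peak, against 57.9% of all. The highest LTR peaks found with a ligand and in no other list were an RMER16-int peak nearest Il5, an interleukin gene, with LG268 (score 11.01, rank 487) and an RLTR24B_MM peak nearest Gimap3 with RA (9.54, rank 641). Of the control's 27 LTR peaks, 22 (81.5%) overlapped a peak of some other list, against 85.8% of all control peaks.

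Few LTR peaks overlapped an H3K27ac peak of the same treatment. The overlap was 3 of 27 in the control (11.1%, 2.35 to 29.2), against 32.0% of all control peaks and 23.1% of intronic and intergenic ones. With GW3965 it was 5 of 154 (3.25%, 1.06 to 7.41), against 18.2% and 14.6%. With LG268 it was 3 of 54 (5.56%, 1.16 to 15.4), against 24.5% and 15.6%. With RA it was 7 of 54 (13.0%, 5.37 to 24.9), against 27.8% and 18.2%. Set against the intronic and intergenic peaks, the LTR interval excluded the background with GW3965 and, narrowly, with LG268, and included it in the control and with RA. Limited to the 409 highest peaks of each list, as many as the shortest list holds, the overlap was 4 of 55 with GW3965 (7.27%, 2.02 to 17.6), against 23.9% of intronic and intergenic peaks. It was then 3 of 7 with LG268 (42.9%, background 30.3%) and 3 of 6 with RA (50.0%, background 38.2%), and 2 of 11 in the control (18.2%, background 34.3%). The value thus lay below the background with GW3965 and in the control, and not with LG268 and RA, and the counts other than GW3965 are too small to tell.

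**Figure D3:**
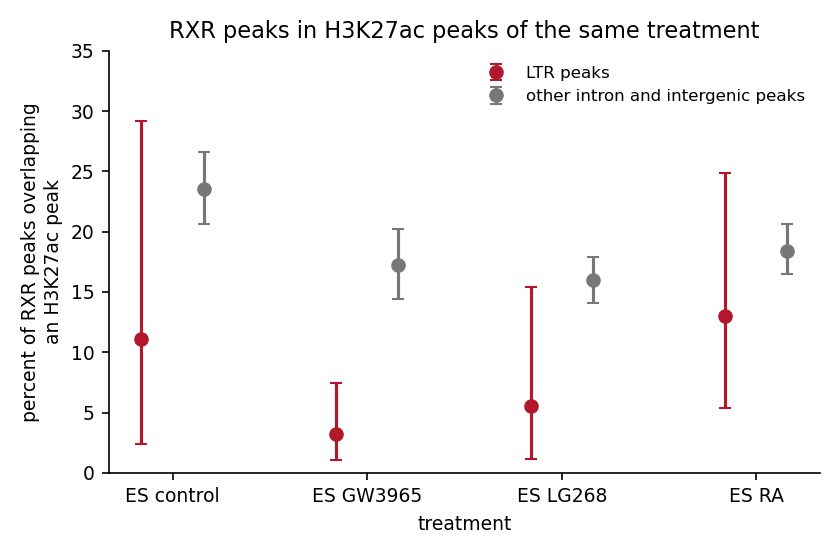
Points give the percent of RXR peaks that overlap an H3K27ac peak of the same treatment, for LTR peaks (red) and for the other intronic and intergenic peaks (grey), with exact 95% intervals. The red point is lower in each treatment, and the intervals are apart only with GW3965.

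Counting H3K27ac peaks within 1 kb changed the picture for GW3965. Of its LTR peaks 34 of 154 (22.1%, 15.8 to 29.5) then had an H3K27ac peak, against 32.4% of all GW3965 peaks and 227 of the 841 intronic and intergenic ones. Against the control H3K27ac list, 10 of 154 (6.49%, 3.16 to 11.6) overlapped a peak directly, against 19.7% of all GW3965 peaks and 15.3% of the intronic and intergenic ones, and 55 (35.7%, 28.2 to 43.8) had a peak within 1 kb. The count within 1 kb compares with 36.2% of all GW3965 peaks and 30.8% of the intronic and intergenic ones. So control H3K27ac lay near these LTR peaks at a share close to that of all GW3965 peaks, while fewer of them overlapped it. For RLTR13D6, 0 of 23 peaks overlapped GW3965 H3K27ac, 4 had it within 1 kb, and 10 had control H3K27ac within 1 kb. For RLTR9D the 3 counts were 0, 5 and 5 of 11, for RLTR9E 0, 3 and 6 of 10, and for RMER16B2 0 of 5 each. In the control the share within 1 kb of H3K27ac of the same treatment was 25.9% (11.1 to 46.3), against 47.7% of all peaks and 35.3% of intronic and intergenic ones. With LG268 it was 11.1% (4.19 to 22.6), against 36.2% and 22.4%, and with RA 20.4% (10.6 to 33.5), against 41.0% and 26.8%. Each of these intervals included the share of intronic and intergenic peaks.

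The LTR peaks under H3K27ac were few and mostly recurrent. The RLTR33 peak in Aida and the RLTR44-int peak in Dock2 overlapped H3K27ac in all 4 treatments. An RMER12C peak on chromosome Y overlapped it with LG268 and RA. Its nearest gene, 538168 bp away, was Zfy1, a zinc finger gene of that chromosome. In the control the same region had an RXR peak without a repeat name (score 6.75) and overlapped an H3K27ac peak (score 10.77, rank 8203). Further LTR peaks under H3K27ac with RA were ORR1A1 nearest Fam171a1, RLTR44-int nearest Fam196b and MLT1E1A nearest Reg4. Another was RMER10A nearest Galnt7, a glycosyltransferase gene. In the control it was an ORR1E peak 191806 bp upstream of Fezf2, a forebrain transcription factor gene. With GW3965 there were an ORR1A2-int peak nearest Plcxd1, an MTE2a peak nearest Tmcc3 and a BGLII_A peak nearest Slc18b1. The last of these was the only one of them found in no other RXR list (score 3.38, rank 882). The regions nearest Fezf2, Plcxd1 and Tmcc3 each overlapped an H3K27ac peak in the control, GW3965 and RA lists alike. Their RXR peaks in the other lists were named simple repeat. The treatment under which these 3 appear here therefore depends on the repeat name.

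Merging overlapping LTR peaks gave 319 regions, of which 233 (73.0%) had an RXR peak in a single list and 86 in at least 2. The GW3965 list supplied 134 of the single-list regions, day 8 replicate 2 supplied 41, LG268 22, RA 16, day 8 replicate 1 6, the control 5, and the day 16 replicates 4 and 5. Without the GW3965 list, 75 of 179 regions (41.9%) recurred. An RXR peak was found in ES lists only at 208 regions, in day lists only at 87 and in both at 24. Regions of all RXR peaks were not merged and counted in this way. These recurrence counts therefore have no background and are not shown to be particular to LTR sites. In at least 4 lists there were 26 regions. At 16 of these every peak was annotated as LTR, and at 7 the overlapping peaks of some lists were annotated as simple repeat instead, as at Tmcc3, Plcxd1 and Fezf2.

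LTR-named peaks lay in all 8 lists at 2 sites. The higher-scoring of them was an RLTR33 element in intron 1 of 9 of Aida, an axin-interacting protein gene, at chr1:183299027-183299685. Its score was 20.74 in the control, 26.21 with GW3965, 35.68 with LG268 and 47.64 with RA, with ranks 119, 24, 82 and 41. On day 8 the scores were 100.4 and 132.91 (ranks 19 and 17), and on day 16 they were 75.52 and 81.64 (ranks 42 and 28). It was the highest LTR peak in each of the 8 lists. Scores are comparable within a list only, since their scale between lists is not stated, and by rank it stood highest on day 8 replicate 2 and lowest in the control. Its H3K27ac peak ranked 2914, 2223, 6445 and 5491 in the control, GW3965, LG268 and RA lists.

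RLTR44-int was the name with the most members, 28, and all of them lay at 5 sites, each with a peak in at least 4 lists. The site in intron 22 of 51 of Dock2, a Rac exchange factor gene of blood cells (chr11:34681626-34682262), had scores of 15.78, 8.27, 12.86 and 22.13 in the control, GW3965, LG268 and RA lists. On day 8 it had 93.21 and 76.17, and on day 16 47.51 and 58.32. It was thus present in all 8 lists, and its day 8 ranks were 24 and 56. In the same intron, at chr11:34544545-34545056 and nearest to Fam196b, another RLTR44-int site had 10.26, 10.95 and 12.35 in the control, LG268 and RA lists, 37.88 and 41.74 on day 8, and 24.68 and 38.9 on day 16. It had no peak with GW3965.

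Other RLTR44-int sites were found mainly in the day lists. The site nearest Cd300c, an immune receptor gene (chr11:114973412-114973644), had 7.36 with RA, 28.4 and 20.8 on day 8, and 27.91 and 25.98 on day 16. A neighbouring site in the Dock2 intron (chr11:34544257-34544474) had 20.07, 19.05, 13.43 and 21.53 in the 4 day lists and none in ES cells. A site nearest 4930503E24Rik (chr10:124545085-124545302) had 7.12, 11.1, 8.48 and 20.01 in those lists. Copies of an element share sequence, and how the authors treated reads that match several copies is not given in the sources used here.

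Among ERVL-MaLR regions annotated as LTR in every list that held them, the ORR1A1 site 68 kb upstream of Fam171a1 (chr2:3050081-3050420) was in the most lists, 7. Its scores were 15.33, 18.06 and 14.57 in the control, LG268 and RA lists, 84.11 and 112.92 on day 8, and 56.87 and 58.31 on day 16, with no peak for GW3965. The ORR1F site nearest Srsf3, a splicing factor gene, had peaks in 5 lists, with 9.06, 8.81 and 11.17 in the control, LG268 and RA lists and 7.12 and 9.51 on day 8. An RLTR6B_Mm site of the ERV1 family on chromosome X, nearest Zbtb33, which encodes the methyl-DNA-binding protein Kaiso, was found only in the day lists, at 9.61, 10.3, 6.42 and 6.33. MLT1K nearest Ccne1, the cyclin E1 gene, had 9.89 with LG268, 10.0 with RA, and 5.57 and 12.75 on day 8.

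**Figure D4:**
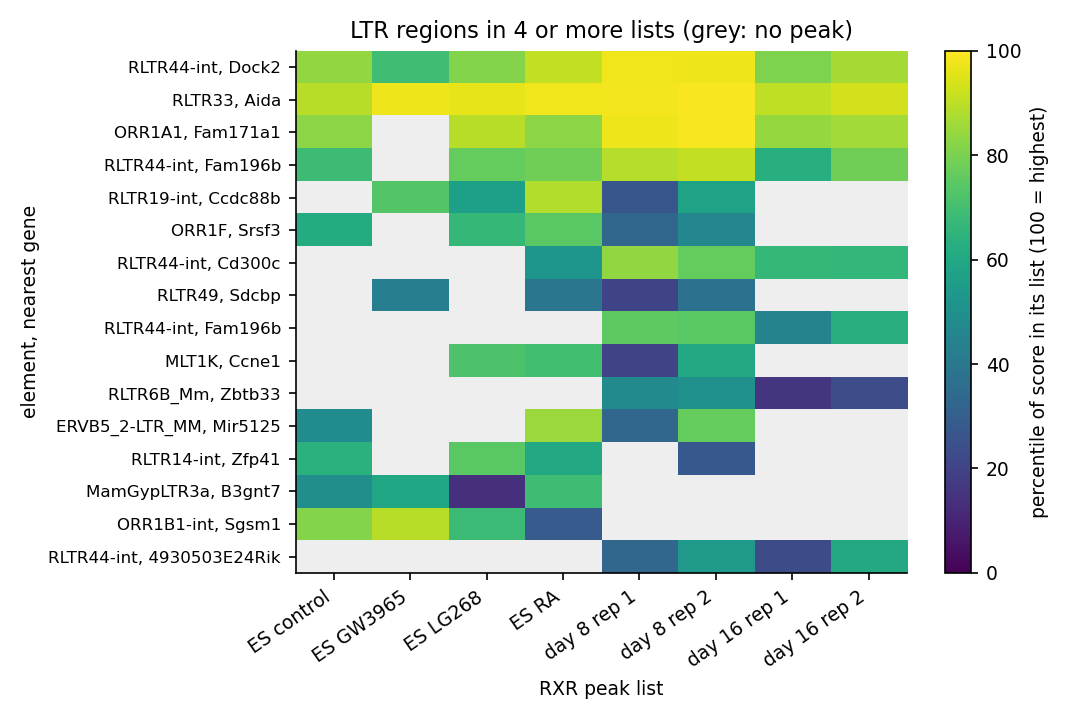
Colour gives the percentile of the authors' score within each list (100 = highest) for the 16 regions found in at least 4 lists and annotated as LTR in each of them, with grey for no peak. The RLTR33 site in Aida is near the top of every list, and RLTR44-int sites have their peaks mostly in the 4 day columns.

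Day 8 brought other ERVK names. LTR elements held 49 of 1154 peaks in replicate 1 (4.25%, 3.16 to 5.57) and 85 of 2044 in replicate 2 (4.16%, 3.33 to 5.12), with ERVK at 31 of 49 (63.3%) and 54 of 85 (63.5%). RLTR17D_Mm had 8 and 13 peaks in the replicates and RLTR22_Mus 7 and 12, and both names had 0 peaks in every ES and day 16 list. None of these peaks overlapped an RXR peak of any ES list. The share of all day 8 peaks that did so was not counted. A control ES peak overlapped 32.1% and 24.6% of all peaks of the replicates, so most day 8 peaks of any kind had no control peak. RLTR22_Mur, a related name, had 2 and 3 peaks and was likewise found on day 8 only.

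Most of the replicate 1 sites were also found in replicate 2. Of the RLTR17D_Mm peaks, 7 of 8 in replicate 1 overlapped a replicate 2 peak, and 6 of 13 in replicate 2 overlapped a replicate 1 peak. For RLTR22_Mus the counts were 7 of 7 and 8 of 12. Over all LTR peaks they were 42 of 49 (85.7%), against 85.9% of all replicate 1 peaks, and 41 of 85 (48.2%), against 48.0% of all replicate 2 peaks. LTR peaks thus recurred between the day 8 replicates at shares close to those of all peaks. Of the 41 regions with an LTR peak in both replicates, 29 had no peak in any ES list. The same count was not made for regions of all peaks, so it is not shown to be a trait of LTR regions.

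The highest RLTR22_Mus site lay at chr1:173821630-173822012, nearest Ifi204, an interferon-inducible gene, with scores of 19.98 and 33.01 in the replicates. The next was nearest Cox7c, a cytochrome oxidase subunit gene, with 13.47 and 29.18. The highest RLTR17D_Mm site lay at chr8:96868623-96868967, with 24.81 and 24.5, far from the nearest TSS the files name. Another, nearest Txk, a kinase gene of T cells, had 12.26 and 16.21. Most sites of these names stood low in their lists, with median score percentiles of 23.6 and 27.7 for RLTR17D_Mm and 38.6 and 40.1 for RLTR22_Mus. A site nearest Sh3bgr was named RLTR17D_Mm in replicate 1 and RLTR22_Mus in replicate 2, so the 2 names can share a place.

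Day 8 LTR peaks overlapped control ES peaks in 6 of 49 (12.2%, 4.63 to 24.8) and 7 of 85 (8.24%, 3.38 to 16.2) cases, against 32.1% and 24.6% of all peaks of the replicates. Among the 409 highest peaks of each list this difference was absent, at 4 of 9 LTR peaks in each replicate (44.4%) against 45.7% and 47.9% of all. On day 16 there were 15 LTR peaks in each replicate, of 429 peaks (3.50%, 1.97 to 5.70) and 409 peaks (3.67%, 2.07 to 5.98). Of each 15, 5 (33.3%) overlapped a control ES peak, against 61.1% and 54.8%, and 9 (60.0%) overlapped a peak of the other day 16 replicate, against 72.7% and 72.6%. A day 8 peak lay at 11 and 10 of the 15, against 80.4% and 76.3% of all day 16 peaks. All 9 regions with an LTR peak in both day 16 replicates had peaks in both day 8 replicates, and 3 of the 9 had none in ES cells. Neither count was made for regions of all peaks.

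The LTR share was 4.20% ± 0.0619 (SD, n = 2) on day 8 and 3.58% ± 0.121 (SD, n = 2) on day 16. The difference of 0.620 percentage points gave p = 0.333 in an exact two-sided permutation test over the 4 libraries, the smallest p this design allows. It also changed sign with the choice of peaks: simple repeats made up 37.1% and 37.9% of the day 16 lists, against 12.7% and 7.49% on day 8. With repeat and mitochondrial peaks left out, the LTR share was 5.08% and 4.60% on day 8 and 7.08% and 7.32% on day 16. No direction between the days is therefore given.

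LTR peaks were not among the strongest peaks as a group. Their median score percentile was 60.3 in the control, 42.9 with GW3965, 40.9 with LG268, 52.7 with RA, 33.1 in both day 8 lists, and 38.1 and 60.3 on day 16. In the GW3965 list 64 of 154 (41.6%, 33.7 to 49.8) were in the upper 50% of score ranks, against 49.9% of all its peaks. From the highest to the lowest quartile of scores the LTR share there was 12.7%, 14.5%, 20.3% and 18.0%, each above the LTR share of every other list as a whole. On day 8 the top quartiles had 2.78% and 2.18% LTR peaks and the quartiles below the median had 6.69% and 5.40% in replicate 1 and 6.19% and 6.07% in replicate 2. The upper 50% held 14 of 49 (28.6%, 16.6 to 43.3) and 24 of 85 (28.2%, 19.0 to 39.0) day 8 LTR peaks, against 50.0% and 51.3% of all peaks.

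**Figure D5:**
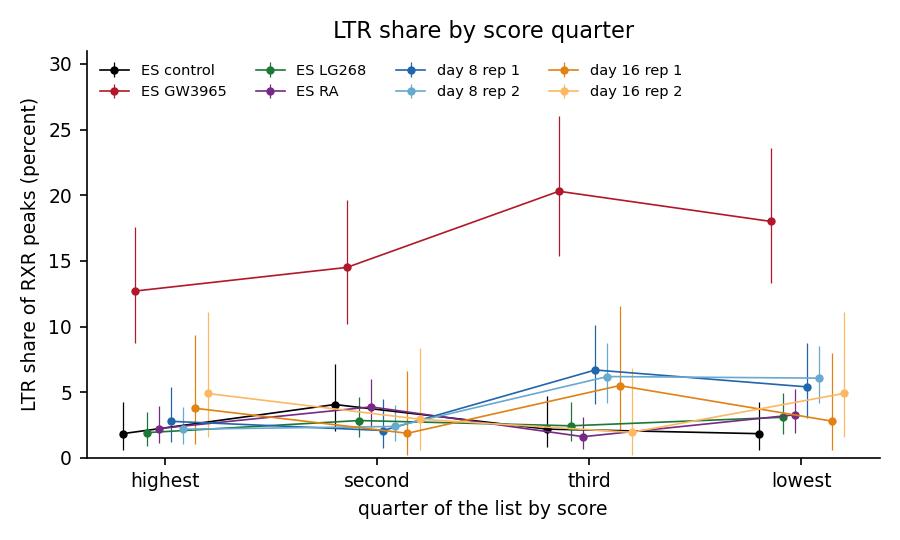
Each point is the percent of peaks in LTR elements within a quartile of a list's scores, from highest to lowest, with its exact 95% interval; lists are offset sideways. The GW3965 line stays above all others, between 12.7% and 20.3%.

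Against peaks of the same kind, LTR peaks had no common shift in distance to genes. The median distance to a TSS was 33.8 kb against 27.5 kb for non-LTR intronic and intergenic peaks in the control, and 27.9 kb against 25.5 kb with GW3965. It was 26.3 kb against 28.9 kb with LG268 and 20.7 kb against 29.0 kb with RA. In the day 8 replicates it was 55.0 kb against 48.1 kb and 47.4 kb against 37.1 kb, and in the day 16 replicates 76.1 kb against 55.9 kb and 68.1 kb against 59.4 kb. The medians were thus higher for LTR peaks in 6 lists and lower with LG268 and RA, with no test made. The nearest TSS lay within 100 kb for 76.0% of LTR peaks with GW3965 (all peaks 83.3%), 74.1% in the control (84.1%), 79.6% with LG268 (84.3%) and 83.3% with RA (83.9%). The GW3965 LTR peaks named 114 genes.

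In every list, most genes named as nearest to an RXR peak had no LTR peak. Of the nearest genes within 100 kb of an RXR peak, 15.6% had an LTR peak with GW3965, 2.33% in the control, 2.66% with LG268 and 45 of 1498 with RA. Among the few listed genes with an RXR peak, a count of 0 is close to this background in the control, LG268 and RA lists. With GW3965 the background of 15.6% is higher, and whether a count of 0 falls below it was not tested. Of 23 LXR targets, such as Abca1 and Srebf1, which act in sterol efflux and lipid synthesis, 10 had some RXR peak within 100 kb with GW3965 and 11 in the control, and 0 had an LTR peak in any list. Of 25 RAR targets, such as Rarb and Cyp26a1, 20 had some peak with RA and 0 an LTR peak in any list. Of 24 pluripotency genes, 9 had a peak with GW3965 and 0 an LTR peak. Of 20 genes of the 2-cell-like state or linked to ERVL elements, 1 or 2 had a peak in each list and 0 an LTR peak. Of 20 genes for silencing of retroelements, only Zfp57, a KRAB zinc finger gene that protects imprinted methylation, had an LTR peak: an MTEa element with GW3965 at chr17:36995566-36995762, 5499 bp upstream of its TSS, with a score of 5.1 and rank 643.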

How the data were processed

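The deposited files are 12 peak lists, 1 per library: 8 for RXR and 4 for H3K27ac. Per the submitters' processing notes, BWA 0.6.0, HOMER 4.2 and MACS2 2.0.10 were used, with the builds mm9 and mm10 named without a role. Per the file headers, peaks were annotated against mm10. The score of each peak is the authors' deposited value. Nothing states how it scales from library to library, so it was used as a rank within a list. The authors' deposited annotation also gives each peak a repeat name, a nearest gene and the distance to its TSS. Total reads per library and the handling of multi-mapping reads are not given in the sources used here.

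Members, element groups and gene lists were chosen with earlier results of these data known. Overlaps of at least 1 bp were counted in Python 3.11.15 with pandas 2.3.3 and numpy 2.4.6, with exact Clopper-Pearson 95% intervals from scipy 1.17.1, and plotted with matplotlib 3.10.9. Overlapping LTR peaks of all lists were merged to regions. The text names elements and nearest genes of the 10 highest LTR peaks of a list, of regions in at least 4 lists, of LTR peaks under H3K27ac, list genes with an LTR peak within 100 kb, and names with at least 5 peaks in a list. E2f6, Spp1, Fbxl4, Cwf19l2, Tle4, Mir290, Gimap3, Txk and Sh3bgr were chosen after their values were seen. The overlap step was tested on partners planted beside the GW3965 and RA RXR peaks. The merging step was checked only for keeping every peak. Only the days have replicates, compared by an exact permutation test. Alternatives were other score thresholds, list lengths, overlap rules, classes and left-out libraries. Motif counts in the peaks had been planned and were left out, since they need the genome, which was not used here.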

Additional observations from a re-analysis of the deposited data

How the results depend on the processing

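Of 157 alternative values, 122 stayed within the counting interval of the reported value or kept its sign, 32 moved outside it and 3 reversed. Counts of LTR peaks are small outside the GW3965 list (15 to 85 a list), depth is unknown, and each ES treatment has 1 library, so intervals cover counting error only. Except where a value shows it, the cause of a shift was not tested. The intron and intergenic restriction, the control H3K27ac list, the leaving out of the GW3965 list and the backgrounds of the shorter lists were chosen after seeing the data.

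With the higher-scoring 50% of each list, the LTR share was 13.6% with GW3965 and 2.43% and 2.29% in the day 8 replicates, ERVK held 75.0% in day 8 replicate 2, and regions in at least 2 lists made up 34.2%. The share of LTR peaks with a control peak was 9.38% with GW3965, 28.6% and 16.7% in the day 8 replicates and 66.7% in day 16 replicate 1. Of all peaks of these shortened lists, 32.6%, 41.4%, 29.8% and 77.0% had one. With lists cut to 409 peaks, the LTR share was 13.4% with GW3965, 1.71% with LG268, 1.47% with RA and 2.20% in both day 8 replicates. ERVK then held 66.7% with RA and 77.8% in day 8 replicate 1. A control peak lay at 57.1% of LTR peaks with LG268, 66.7% with RA and 44.4% in both day 8 replicates. Of all peaks of these lists it lay at 63.8%, 62.6%, 45.7% and 47.9%. H3K27ac covered 42.9% of LTR peaks with LG268 and 50.0% with RA, against 30.3% and 38.2% of intronic and intergenic peaks. Median score percentiles were 24.6 in the control and 54.2 in day 8 replicate 1. These lists hold fewer LTR peaks by construction.

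Among intronic and intergenic peaks the LTR share was 3.48% with LG268 and 3.68% with RA. Without repeat and mitochondrial peaks it was 7.08% and 7.32% on day 16. H3K27ac within 1 kb counted for 22.1% with GW3965.

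The LTR share of day 8 minus day 16, 0.620 percentage points, became -1.01 in the higher-scoring 50%, -1.47 in lists of equal length and -2.35 without repeat peaks, each with the smallest exact permutation p of 0.333. Leaving out single replicates gave 0.535 to 0.706. With the replicate number as a block, the pairing gave 0.620 (pairs 0.750 and 0.491, exact sign-flip permutation p = 0.500, the smallest possible). The labels do not say that a number marks a shared culture. Recurrent regions were 18.8% to 27.4% on leaving out single day libraries, with 18.8% without day 8 replicate 1 and 21.2% without day 8 replicate 2, and 41.9% without the GW3965 list.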

Other observations

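At 7 of the 26 regions with a peak in at least 4 lists, the peaks were named LTR in some lists and simple repeat in others. The region nearest Tmcc3 (chr10:94592443-94592643, bounds of the LTR-named peak) had a peak in all 8 lists, named MTE2a with GW3965 only. Its scores there and in the control, LG268 and RA lists were 9.62, 29.87, 50.48 and 39.3. The region nearest Plcxd1 was likewise named ORR1A2-int with GW3965 only, with 13.43 there, 33.87 in the control, 62.39 and 56.62 on day 8, and 83.7 and 72.98 on day 16. ORR1F elements nearest Snx20 and Isl1, a LIM homeobox gene, were named in the control only, with 6.81 and 11.14. The TSS of Isl1 lay 567348 bp away. A member count at such places depends on the name each list's peak received.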
